A study of Mus musculus with 16 samples.

Results

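The 10 genes described here encode phosphatases that act on mitogen-activated protein kinases (MAPKs): Dusp1, Dusp2, Dusp4, Dusp5, Dusp6, Dusp8, Dusp10, Dusp14, Dusp16 and Dusp18. They were chosen by symbol out of 55304 gene symbols in the deposited tables. The table of silenced cultures held all of these, 20081 of them without counts, and the table of basal cultures held 26371. Comparisons between the states used the shared symbols. All 10 have a row in both tables, and all 10 passed the filter on low counts in every comparison.

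MAPK cascades carry signals from receptors and from calcium entry to the nucleus by phosphorylating a kinase on a threonine and a tyrosine of its activation loop. Dual-specificity phosphatases remove both phosphates and so switch the kinase off. Several of their genes are themselves transcribed in response to MAPK and calcium signalling, which makes them feedback inhibitors, and in neurons some are rapidly induced by activity. The nuclear enzymes are encoded by Dusp1, Dusp2, Dusp4 and Dusp5, of which the Dusp5 product acts mainly on ERK. Dusp6 encodes a cytoplasmic phosphatase selective for ERK. Dusp8, Dusp10 and Dusp16 encode enzymes that prefer JNK and p38. Dusp14 and Dusp18 encode small atypical members that lack the kinase-docking domain of the others.

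Mouse cortical neurons in primary culture (strain given as C57/BL6, taken at embryonic day 17.5 to 19.5) were the source of the poly(A) RNA. Each replicate pooled 1 litter, and cultures carried adeno-associated virus (AAV) from day 8 to day 13 in vitro. All 5 groups carried a virus with a short hairpin RNA. Silenced cultures held 3 libraries with shNup153-2, a hairpin against the nuclear basket nucleoporin Nup153, and 3 with the control hairpin shControl. They had received 1 to 2 µM tetrodotoxin (TTX), a sodium channel blocker, over 24 hours. The NMDA receptor blocker D-AP5 was present at 100 µM over 6 hours. Basal cultures, with neither agent, held 2 libraries with shNup153-2, 2 with a further Nup153 hairpin, shNup153-1, and 4 with shControl. The labels give no promoter for the hairpins and do not restrict the virus to a cell type.

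Library totals ranged from 26863535 to 56299817 counts, and the members held between 27 (Dusp2) and 10763 (Dusp8) counts in a library. Levels are given as CPM, counts divided by the scaled library total, on 1 scale for all 14 libraries. Nup153 stood at 9.38 to 13.4 CPM in silenced shNup153-2 cultures against 52.1 to 64.2 CPM in silenced shControl. At basal state it stood at 11.6 and 13.5 CPM with shNup153-2, 17.1 and 28.0 CPM with shNup153-1, and 52.9 to 94.5 CPM with shControl. Groups were taken from the sample titles, since every sample description names the control virus, and per the labels only cultures with enough knockdown were processed. Neuronal markers summed to 6615 to 7206 and 6134 to 7898 CPM in silenced shNup153-2 and shControl libraries, and to 7077 to 8360, 6100 to 7493 and 4906 to 8234 CPM in basal shNup153-2, shNup153-1 and shControl libraries. Astrocyte markers were also present, at 252 to 1317 and 237 to 1172 CPM in silenced shNup153-2 and shControl libraries and at 2235 to 2573, 1133 to 2900 and 442 to 2488 CPM in basal shNup153-2, shNup153-1 and shControl libraries. Among the basal shControl libraries, replicates 1 and 3 resembled each other, as did 2 and 4: the chi-square per gene was 76.1 and 45.1 within these pairs and 129 to 257 between other pairs.

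Promoter sequence is shown for the 3 members with a full CRE or a CArG box, motifs known from activity-induced genes. Members with only a core are not shown. The letters TGACGTCA are the cyclic AMP response element (CRE), bound by CREB, and CGTCA is its core, so that each full CRE holds 2 overlapping cores. The CArG box is bound by serum response factor. Capitals mark all CRE, core and CArG matches on either strand, and every stretch ends upstream of the RefSeq start site (GRCm38.p6, 5′ to 3′ on the gene's strand).
Dusp1, chr17:26508598-26508678, minus strand: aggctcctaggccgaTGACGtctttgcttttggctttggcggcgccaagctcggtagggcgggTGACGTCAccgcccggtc
Dusp5, chr19:53529048-53529104, plus strand: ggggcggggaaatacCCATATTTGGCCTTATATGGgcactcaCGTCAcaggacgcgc
Dusp8, chr7:142095330-142095406, minus strand: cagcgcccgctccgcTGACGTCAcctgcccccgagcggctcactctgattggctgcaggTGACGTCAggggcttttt

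Promoters of 9 members, each 300 bases long, were searched on both strands. The Dusp8 stretch held 2 full CREs and the Dusp1 stretch 1 full CRE and a further core. The full CRE was thus present in 2 of 9 members, against 1.79% of all 32851 promoters in the table, and 2 or more copies were present in 0.0396% of all promoters. The core was present in 5 of 9 (Dusp1, Dusp2, Dusp5, Dusp8 and Dusp16) against 20.8% of all promoters. Dusp5 held a pair of CArG boxes just upstream of its core, and a CArG box was found in 1 of 9 members against 1.63% of all promoters. The AP-1 motif TGANTCA was in none of the 9 and in 7.81% of all promoters. The windows of Dusp6, Dusp10, Dusp14 and Dusp18 held none of these letters. These are matches of letters, and binding was not measured here.

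The genes lie apart in the genome (mm10, GENCODE M21): Dusp1 at chr17:26505590-26562128, Dusp4 at chr8:34807297-34819894, Dusp5 at chr19:53529109-53542431, Dusp6 at chr10:99263231-99267489, Dusp8 at chr7:142079490-142095843 and Dusp10 at chr1:184013302-184075636. Dusp2 lies at chr2:127336159-127338376 and Dusp16 at chr6:134715468-134792625. Dusp14 (chr11:84048041-84069261) and Dusp18 (chr11:3895240-3901296) share a chromosome only. All are protein-coding, and counts cover whole genes, so that isoforms were not separated.

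The comparison of levels between members used CPM per kilobase of merged exons (GENCODE M21). In basal shControl cultures Dusp14 (16.2 ± 3.29, SD, n = 4) and Dusp8 (12.7 ± 1.14) stood highest and overlapped within their spread, followed by Dusp6 (7.36 ± 3.82). Dusp4, Dusp1, Dusp18 and Dusp10 lay together between 2.62 and 2.75 CPM per kilobase, and Dusp2, Dusp5 and Dusp16 between 1.21 and 1.34, with no neighbour in either set separated beyond its SD. In the other 4 groups Dusp8 was highest. It reached 48.9 ± 6.88 CPM per kilobase (SD, n = 3) in silenced shNup153-2 cultures and 34.6 ± 6.63 (SD, n = 3) in silenced shControl cultures, ahead of Dusp14 at 26.9 ± 3.83 and 19.9 ± 2.53. At basal state it reached 37.2 ± 2.56 with shNup153-2 and 26.4 ± 0.518 with shNup153-1 (SD, n = 2 each). Dusp18, an atypical member, followed Dusp14 by mean in both silenced groups, at 12.0 ± 0.554 with shNup153-2 and 4.86 ± 0.171 with shControl (SD, n = 3 each). In silenced shControl cultures Dusp6, at 4.03 ± 1.88 (SD, n = 3), was not separated from Dusp18 beyond its SD.

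**Figure D1:**
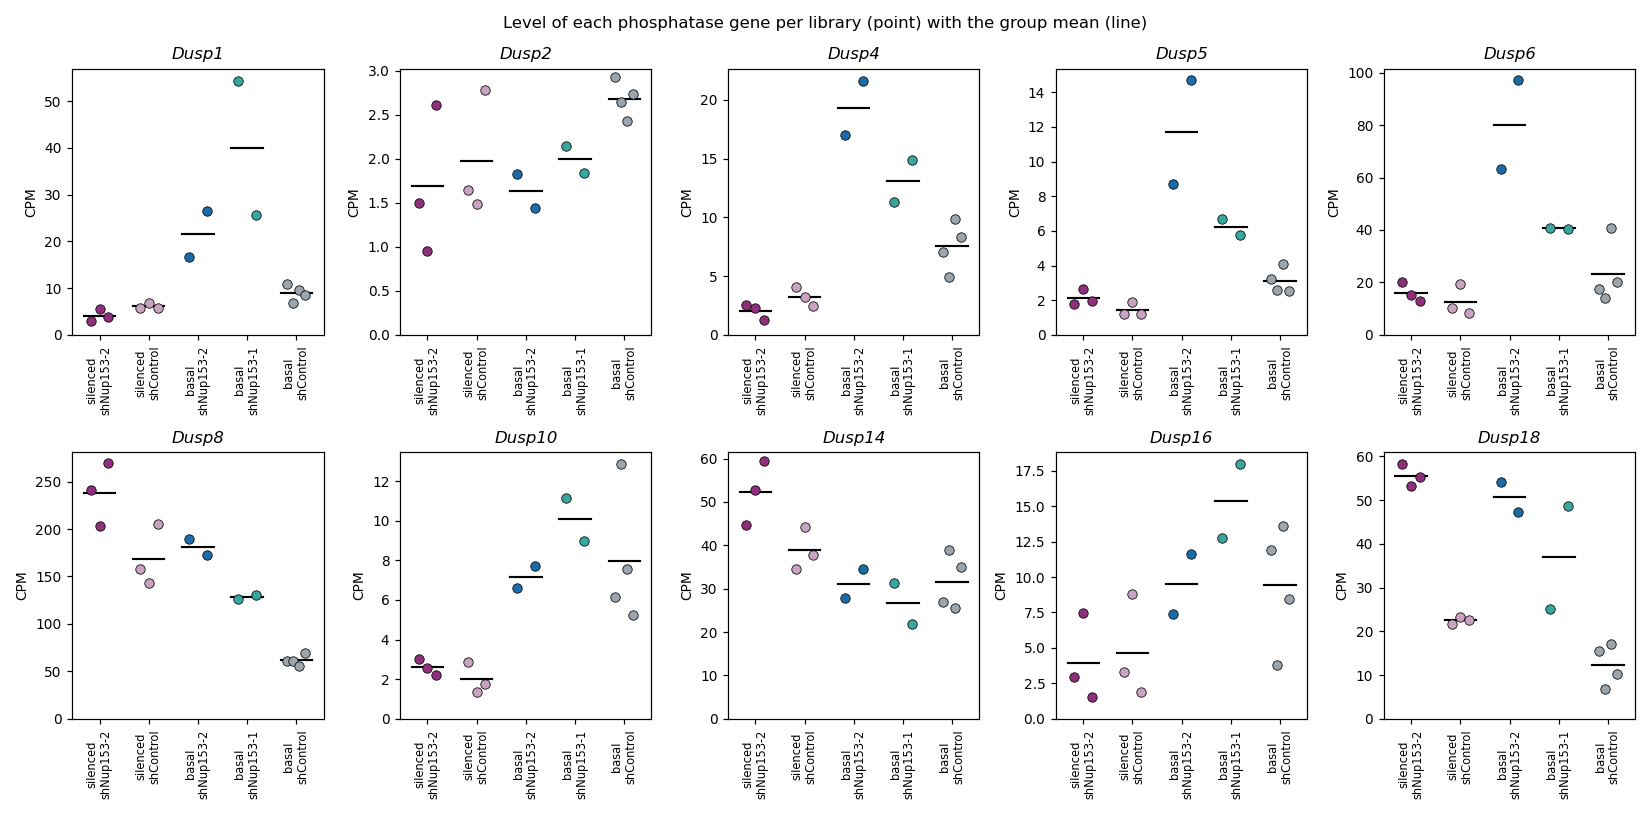
CPM of each phosphatase gene (y axis, linear, from 0) in every library of the 5 groups (x axis), with lines at group means. Dusp8 and Dusp18 stand higher in both basal knockdown groups than in basal shControl, and Dusp1, Dusp4, Dusp5 and Dusp6 are lower in both silenced groups than in the basal knockdown groups.

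The question asked first was which phosphatase genes differed when Nup153 was reduced in active, basal cultures. With shNup153-2, 6 of the 10 members rose and none fell: Dusp1, Dusp4, Dusp5, Dusp6, Dusp8 and Dusp18. Over all 19682 genes tested, 5.91% rose and 3.64% fell. With shNup153-1, 3 rose and none fell, namely Dusp1, Dusp8 and Dusp18, against 6.52% of 14529 genes that rose and 7.05% that fell. The median log2 fold change over the 10 members was 1.28 with shNup153-2 (all genes -0.03) and 0.78 with shNup153-1 (all genes -0.02). Both hairpins were set against the same 4 shControl libraries.

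Among the nuclear phosphatases, Dusp1, which acts on p38, JNK and ERK and is a classic immediate early gene, had 16.7 and 26.5 CPM in basal shNup153-2 libraries, 54.4 and 25.5 CPM with shNup153-1, and 10.9, 6.88, 9.59 and 8.60 CPM with shControl. Every knockdown library lay above every shControl library, and the shNup153-1 libraries differed widely from each other. The log2 fold change was 1.23 (SE 0.26, edgeR BH-adjusted p = 0.0268) with shNup153-2 and 2.12 (SE 0.32, edgeR BH-adjusted p = 0.00577) with shNup153-1. Dusp4, a close relative of Dusp1, had 17.0 and 21.6 CPM with shNup153-2, 11.3 and 14.9 CPM with shNup153-1, and 7.07, 4.91, 9.89 and 8.29 CPM with shControl. Here too the knockdown libraries stood above all controls, and Dusp4 rose with shNup153-2 (1.33, SE 0.28, edgeR BH-adjusted p = 0.0272) but did not pass the threshold with shNup153-1 (0.77, 95% interval 0.11 to 1.43, edgeR BH-adjusted p = 0.114).

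Dusp5 had 8.69 and 14.7 CPM with shNup153-2, 6.70 and 5.77 CPM with shNup153-1, and 3.23, 2.62, 4.11 and 2.55 CPM with shControl. The groups did not overlap, and Dusp5 rose by 1.87 (SE 0.30, edgeR BH-adjusted p = 0.0114) with shNup153-2, while the value with shNup153-1 was 0.97 (95% interval 0.28 to 1.66, edgeR BH-adjusted p = 0.0682). An antisense gene overlaps 22.1% of the exon bases of Dusp5, and whether the counting used strand is not known. Dusp2, a nuclear enzyme best known from lymphocytes, went the other way in level but passed no test: it had 1.83 and 1.44 CPM with shNup153-2, 2.15 and 1.84 CPM with shNup153-1, and 2.93, 2.65, 2.43 and 2.73 CPM with shControl. All knockdown libraries lay below all controls, with log2 fold changes of -0.75 (95% interval -1.41 to -0.08, edgeR BH-adjusted p = 0.137) and -0.46 (-1.09 to 0.18, edgeR BH-adjusted p = 0.317).

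Dusp6, the cytoplasmic ERK phosphatase, had 63.3 and 97.1 CPM with shNup153-2, 40.7 and 40.5 CPM with shNup153-1, and 17.4, 14.1, 40.6 and 20.1 CPM with shControl. The shNup153-2 libraries stood above all controls, whereas shControl replicate 3 reached the shNup153-1 level. Dusp6 rose with shNup153-2 (1.77, SE 0.39, edgeR BH-adjusted p = 0.0317), and the value with shNup153-1 was 0.79 (95% interval -0.11 to 1.68, edgeR BH-adjusted p = 0.221).

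Of the phosphatases that prefer JNK and p38, Dusp8, whose transcript is abundant in brain, had 190 and 172 CPM with shNup153-2, 127 and 130 CPM with shNup153-1, and 61.1, 60.9, 55.5 and 69.0 CPM with shControl. Replicates agreed closely and no group overlapped another. It rose 2.87-fold with shNup153-2 (log2 1.52, SE 0.17, edgeR BH-adjusted p = 0.00498) and 2.05-fold with shNup153-1 (log2 1.04, SE 0.15, edgeR BH-adjusted p = 0.00534). Dusp10 and Dusp16 passed the threshold with neither hairpin. Dusp10 had 6.61 and 7.69 CPM with shNup153-2, 11.1 and 9.0 CPM with shNup153-1, and 5.22 to 12.9 CPM with shControl. Its log2 fold changes were -0.19 (95% interval -1.06 to 0.68) and 0.32 (-0.48 to 1.12). Dusp16 had 7.37 and 11.6 CPM with shNup153-2, 12.8 and 18 CPM with shNup153-1, and 11.9, 3.76, 13.6 and 8.48 CPM with shControl. The shControl libraries alone spanned more than the difference between groups, and the intervals were wide, at -1.08 to 1.04 with shNup153-2 and -0.36 to 1.70 with shNup153-1.

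The atypical members split. Dusp18, which encodes a small phosphatase found in mitochondria, had 54.1 and 47.4 CPM with shNup153-2, 25.2 and 48.6 CPM with shNup153-1, and 15.6, 6.81, 17.0 and 10.1 CPM with shControl. All knockdown libraries exceeded all controls, and replicates 1 and 3 of shControl were the higher ones. It rose 4.02-fold with shNup153-2 (log2 2.01, SE 0.33, edgeR BH-adjusted p = 0.0118) and 2.92-fold with shNup153-1 (log2 1.55, SE 0.38, edgeR BH-adjusted p = 0.0304). Dusp14 had 27.9 and 34.5 CPM with shNup153-2, 31.4 and 21.8 CPM with shNup153-1, and 25.6 to 38.9 CPM with shControl. These ranges overlapped, with intervals of -0.60 to 0.49 and -0.82 to 0.27 on the log2 scale.

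These calls rest on few knockdown libraries. Leaving out shNup153-2 replicate 1 or 2 leaves 1 library in that group, so such a fit cannot decide the calls. The log2 fold changes of the 6 members then lay between 0.87 and 2.2. Without shControl replicate 4, 3 members (Dusp5, Dusp8 and Dusp18) passed with shNup153-2, where 431 of 19782 genes rose and 219 fell. Without shControl replicate 1, Dusp6 did not pass with this hairpin (edgeR BH-adjusted p = 0.0512). Leaving out shNup153-1 replicate 1 or 2 likewise leaves 1 library, so such a fit cannot decide the calls with that hairpin. The log2 fold changes were then 1.06 and 1.01 for Dusp8, 1.48 and 2.56 for Dusp1, and 1.95 and 0.98 for Dusp18. With shNup153-1, Dusp8 and Dusp1 passed whichever shControl or shNup153-2 library was left out. Dusp18 did not pass without shControl replicate 4 (edgeR BH-adjusted p = 0.0655). Nor did it without shNup153-2 replicate 1 or 2 (0.0575 and 0.0568), which share the fit but are not compared. With shControl replicate 3 left out, 5 members rose with shNup153-1, Dusp5 and Dusp6 in addition, and the log2 fold change of Dusp6 was 1.24. In that fit 1634 of 14448 genes passed, of which 805 fell and the others rose. Oligodendrocyte lineage markers moved with the shNup153-1 group, where 8 of 11 tested rose and their summed level was 800 to 815 CPM, against 254 to 382 CPM with shNup153-2 and 114 to 285 CPM with shControl. Sox10, Mag, Enpp6 and Bcas1 stayed below 1 CPM in basal shNup153-2 libraries, and Mag, Enpp6 and Bcas1 in basal shControl libraries. Astrocyte marker sums were 2235 to 2573 CPM with shNup153-2, within or above the 442 to 2488 CPM of shControl. The 3 microglial markers used, of 8 listed, summed to at most 1.57 CPM in any library. The part of these markers in the basal values was not tested, and in bulk RNA fewer cells of a type and less RNA per cell cannot be told apart.

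**Figure D2:**
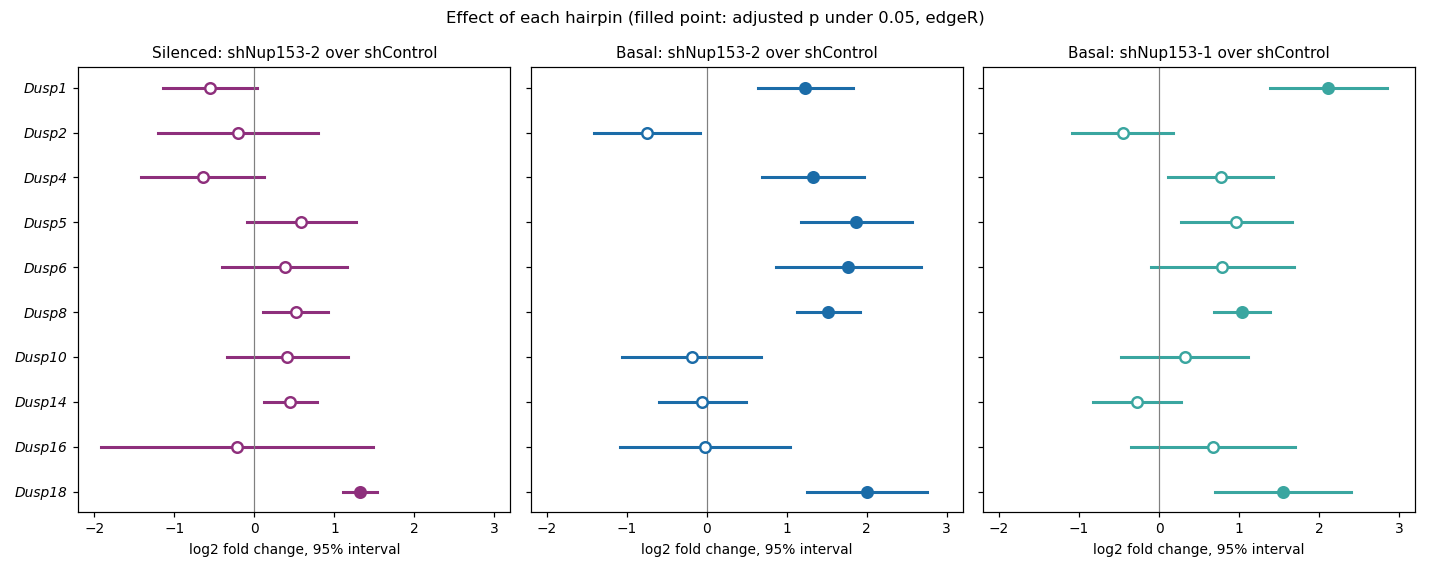
Log2 fold change over shControl (x axis) with its 95% interval for each member (y axis), in silenced cultures with shNup153-2 and in basal cultures with each hairpin. Filled points passed the threshold: Dusp18 in all 3 panels, Dusp1 and Dusp8 in both basal ones, and Dusp4, Dusp5 and Dusp6 in the basal shNup153-2 panel.

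Whether the hairpins themselves differed was tested directly. Of the 10 members none passed the threshold between shNup153-2 and shNup153-1, where 4.48% of 14529 genes did (edgeR), and DESeq2 likewise called none of them. Unadjusted edgeR p was under 0.05 for 3 members, and over all genes for 3747 of 14529. Dusp5 and Dusp8 were higher with shNup153-2 than with shNup153-1, by 0.90 (95% interval 0.09 to 1.71, edgeR BH-adjusted p = 0.162) and 0.49 (0.07 to 0.90, edgeR BH-adjusted p = 0.147), and Dusp1 was lower (-0.89, -1.77 to -0.01, edgeR BH-adjusted p = 0.19). The intervals for Dusp4 (-0.22 to 1.33), Dusp6 (-0.09 to 2.04) and Dusp18 (-0.57 to 1.47) include 0 and also differences of more than 1 log2 unit.

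The same hairpin was then compared with shControl in cultures whose spiking and NMDA receptor input were blocked. Only 1 of the 10 members, Dusp18, rose and none fell, where 1.61% of 18965 genes rose and 1.83% fell, and the median log2 fold change of the members was 0.40 (all genes 0.01). Dusp18 had 58.3, 53.2 and 55.2 CPM with shNup153-2 against 21.7, 23.3 and 22.6 CPM with shControl. Libraries of a group agreed within a few CPM, and the gene rose 2.51-fold (log2 1.33, SE 0.09, edgeR BH-adjusted p = 0.00529). Without silenced shNup153-2 replicate 1 its edgeR BH-adjusted p was 0.0656, at an almost equal log2 fold change of 1.27.

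Dusp8 had 241, 203 and 270 CPM with shNup153-2 against 158, 143 and 205 CPM with shControl, ranges that overlapped at their ends. Its log2 fold change was 0.52 (95% interval 0.11 to 0.92, edgeR BH-adjusted p = 0.156). Dusp14 had 44.6, 52.7 and 59.5 CPM with shNup153-2, all above the 34.5, 44.1 and 37.7 CPM with shControl, and a log2 fold change of 0.45 (0.12 to 0.78, edgeR BH-adjusted p = 0.135). Dusp1 had 3.01, 5.49 and 3.74 CPM with shNup153-2 against 5.75, 6.73 and 5.73 CPM with shControl. All 3 knockdown libraries were below all 3 controls, the opposite order to basal cultures, with a log2 fold change of -0.55 (-1.15 to 0.04, edgeR BH-adjusted p = 0.282). Dusp4 had 2.55, 2.30 and 1.30 CPM with shNup153-2 against 4.10, 3.2 and 2.48 CPM with shControl, overlapping only at 2.55 and 2.48, with a log2 fold change of -0.65 (-1.41 to 0.12, edgeR BH-adjusted p = 0.331).

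In the silenced table libraries of equal replicate number deviated together, so the fit with the replicate number as a block is given too. In that fit 3 members rose, Dusp18 (1.33, edgeR BH-adjusted p = 0.000458), Dusp8 (0.53, edgeR BH-adjusted p = 0.00382) and Dusp14 (0.45, edgeR BH-adjusted p = 0.013). In the same blocked fit 2 fell, Dusp1 (-0.59, edgeR BH-adjusted p = 0.0463) and Dusp4 (-0.67, edgeR BH-adjusted p = 0.0432). Over all genes the blocked fit called 11.7% as rising and 10.3% as falling, so it called more genes in general. The remaining members, Dusp2, Dusp5, Dusp6, Dusp10 and Dusp16, passed in neither fit. Dusp5 came nearest, with 1.76, 2.66 and 1.96 CPM with shNup153-2 against 1.18, 1.89 and 1.23 CPM with shControl and a log2 fold change of 0.59 (95% interval -0.10 to 1.27, edgeR BH-adjusted p = 0.323). Dusp6, at 20.3, 15.1 and 13.0 CPM with shNup153-2 against 10.4, 19.3 and 8.18 CPM with shControl, overlapped through shControl replicate 2, the highest of that group.

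The difference between the states in the shNup153-2 effect was tested as an interaction over both tables. In edgeR 0 of 20926 genes passed, that is 0%, with 2393 at an unadjusted p under 0.05, and none of the 10 members passed. Dusp4 (-2.0, 95% interval -2.98 to -1.02, edgeR BH-adjusted p = 0.162), Dusp1 (-1.82, -2.63 to -1.01, edgeR BH-adjusted p = 0.153) and Dusp8 (-1.04, -1.55 to -0.52, edgeR BH-adjusted p = 0.162) had the smallest p among the members. A negative value means that the silenced effect was lower than the basal one. The same 3 genes passed with DESeq2 (adjusted p of 0.00655 for Dusp4, 0.00282 for Dusp1 and 0.0152 for Dusp8), where 0.86% of genes passed with a negative sign (180 genes) and 71 genes passed with a positive one. For Dusp5 and Dusp6 the values were -1.32 (-2.25 to -0.38) and -1.42 (-2.67 to -0.16), and for Dusp18 -0.71 (-1.54 to 0.12), none of which passed with either tool. Dusp14 and Dusp10 had positive values of 0.47 (-0.12 to 1.06) and 0.57 (-0.56 to 1.70).

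**Figure D3:**
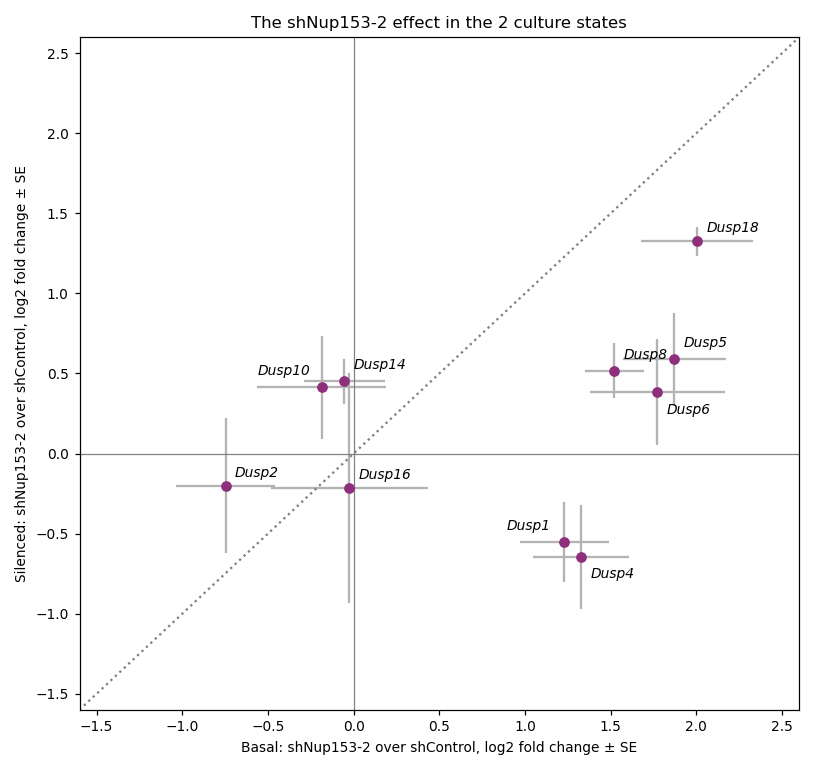
Log2 fold change of each member with shNup153-2 over shControl in silenced cultures (y axis) against basal cultures (x axis), with SE bars and a dotted line of equal effect. Dusp18 is high on both axes, Dusp5, Dusp6 and Dusp8 lie well below the line, and Dusp1 and Dusp4 have opposite signs on the axes.

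Silencing itself was compared within each hairpin, across the separate sets of libraries, so that state and library set cannot be told apart. In shControl cultures 3 of the 10 members fell and 1 rose, where 6.27% of 20926 genes fell and 6.09% rose. With shNup153-2, 5 fell and 1 rose, where 12.3% fell and 9.39% rose. The median over the members was -1.39 with shNup153-2 (all genes 0.01) and -0.77 with shControl (all genes -0.03). Dusp10 fell 4.14-fold in shControl cultures, with 2.86, 1.34 and 1.75 CPM when silenced against 6.16, 12.9, 7.58 and 5.22 CPM at basal state (log2 -2.05, SE 0.35, edgeR BH-adjusted p = 0.00438). It also fell with shNup153-2, with 3.03, 2.55 and 2.23 CPM when silenced against 6.61 and 7.69 CPM at basal state (log2 -1.48, SE 0.39, edgeR BH-adjusted p = 0.0216). The silenced libraries lay below the basal ones with either hairpin, while knockdown moved Dusp10 in neither state past the threshold.

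Dusp4 fell by 1.26 on the log2 scale in shControl cultures (SE 0.30, edgeR BH-adjusted p = 0.0196) and by 3.27 with shNup153-2 (SE 0.35, edgeR BH-adjusted p = 0.000369), where the means were 2.05 ± 0.657 CPM (SD, n = 3) when silenced and 19.3 ± 3.26 CPM (SD, n = 2) at basal state. Dusp5 fell by 1.18 in shControl cultures (SE 0.29, edgeR BH-adjusted p = 0.0223) and by 2.50 with shNup153-2 (SE 0.33, edgeR BH-adjusted p = 0.000955). For both genes silenced and basal libraries did not overlap with either hairpin. Dusp1 and Dusp6 fell with shNup153-2, with log2 fold changes of -2.44 (SE 0.29, edgeR BH-adjusted p = 0.000537) and -2.34 (SE 0.44, edgeR BH-adjusted p = 0.0059). In shControl cultures their values were -0.63 (95% interval -1.16 to -0.09, edgeR BH-adjusted p = 0.118) and -0.92 (-1.76 to -0.09, edgeR BH-adjusted p = 0.141). The difference between these pairs of values is the interaction given above.

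Dusp8 moved in the opposite direction. It rose 2.64-fold in silenced over basal shControl cultures, with 168.7 ± 32.3 CPM (SD, n = 3) when silenced and 61.6 ± 5.53 CPM (SD, n = 4) at basal state (log2 1.4, SE 0.15, edgeR BH-adjusted p = 0.000404). With shNup153-2 the value was 0.36 (95% interval -0.04 to 0.76, edgeR BH-adjusted p = 0.162), at 238 ± 33.5 CPM (SD, n = 3) when silenced and 181 ± 12.4 CPM (SD, n = 2) at basal state. Dusp18 had a log2 value of 0.81 in shControl cultures (0.27 to 1.34, edgeR BH-adjusted p = 0.0526) with no overlap of libraries, and 0.10 (-0.54 to 0.74) with shNup153-2. Dusp14 rose with shNup153-2 (0.71, SE 0.21, edgeR BH-adjusted p = 0.0337). In fits with 1 library left out, it did not pass without silenced shNup153-2 replicate 1, 2 or 3 (edgeR BH-adjusted p of 0.0517, 0.0567 and 0.112). Without basal shNup153-2 replicate 1 or 2, which leaves 1 library in that group, its log2 fold change was 0.57 or 0.89. It passed only where a shControl library, not part of this comparison, was left out. Dusp2 and Dusp16 passed with neither hairpin.

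In the same fits Dusp8 and Dusp10 in shControl passed whichever of the 12 libraries was left out. With shNup153-2, Dusp1, Dusp4, Dusp5 and Dusp6 passed whichever silenced library was left out. In shControl Dusp4 did not pass without basal shControl replicate 3 (edgeR BH-adjusted p = 0.0508), silenced shControl replicate 2 (0.051) or 3 (0.0853), and Dusp5 did not without basal shControl replicate 3 (0.0593) or silenced shControl replicate 1 (0.105) or 3 (0.0964). With shNup153-2, Dusp10 did not pass without silenced shNup153-2 replicate 3 (edgeR BH-adjusted p = 0.0709). Leaving out basal shNup153-2 replicate 1 or 2 leaves 1 library in that group, so such a fit cannot decide the calls with this hairpin. The log2 fold change of Dusp10 was then -1.58 and -1.36, and that of Dusp6 was -1.99 without replicate 2. The shControl libraries share the fit but are not part of the comparison with shNup153-2. The astrocyte marker sums also differed between the states, with 252 to 1317 CPM in silenced and 2235 to 2573 CPM in basal shNup153-2 libraries, and 237 to 1172 CPM in silenced and 442 to 2488 CPM in basal shControl libraries. Of 9 astrocyte markers, 2 fell with shNup153-2 (median -1.28) and 1 fell with shControl (median -1.45), and none rose. Of 12 oligodendrocyte lineage markers, 6 rose and 1 fell with shNup153-2 (median 1.94), and 3 rose and none fell with shControl (median 1.01). Of 7 endothelial and mural markers tested, 1 rose and 2 fell with shNup153-2 (median -0.24), and 1 rose and 3 fell with shControl (median -1.15). Of 11 neuronal markers, 1 rose and 3 fell with either hairpin. The part of these markers in the results on silencing was not tested.

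**Figure D4:**
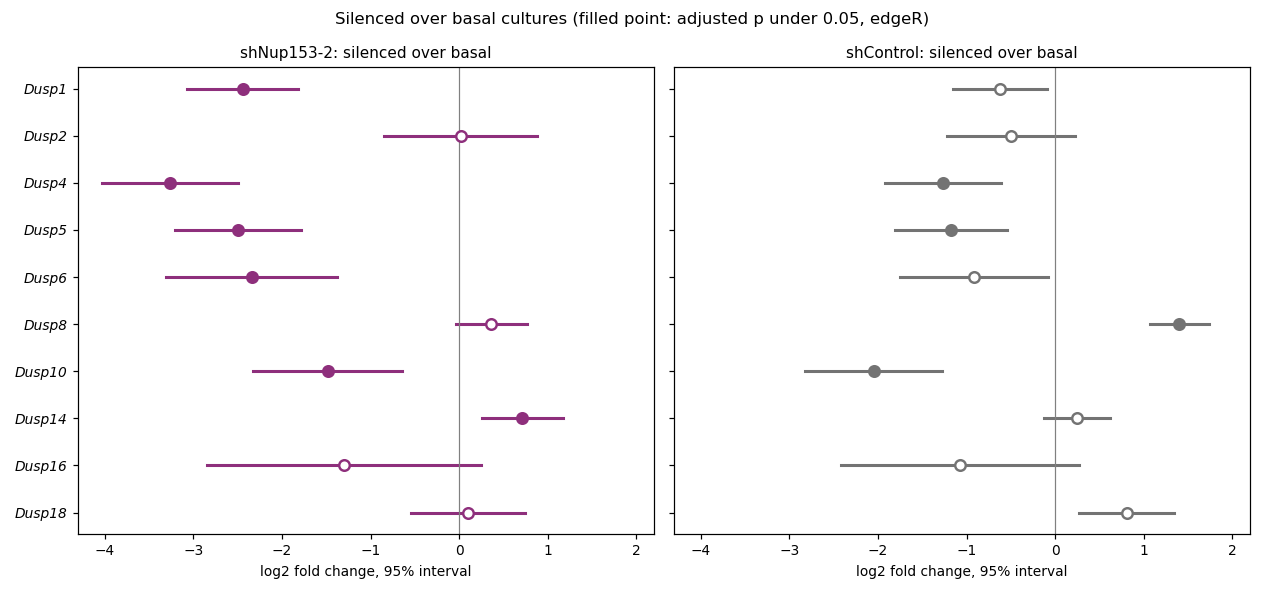
Log2 fold change of silenced over basal cultures (x axis, 95% interval) for each member (y axis), with shNup153-2 on the left and shControl on the right. Filled points passed the threshold: Dusp1, Dusp4, Dusp5, Dusp6 and Dusp10 lower and Dusp14 higher with shNup153-2, and Dusp4, Dusp5 and Dusp10 lower and Dusp8 higher with shControl.

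Members were also compared with each other over the 12 libraries of the 4 groups other than shNup153-1, as a description in which the libraries share the same 4 groups. Dusp1, Dusp4, Dusp5 and Dusp6 ran together, with Pearson correlations of log2 CPM between 0.80 and 0.94 across their 6 pairs. Dusp8 and Dusp18 correlated with each other at 0.86, and Dusp8 correlated with Dusp1 at -0.31 and with Dusp4 at -0.41. The nearest patterns were sought over 20926 genes, leaving out the members and genes with predicted or clone names. Those most like Dusp1 were Cmya5 (0.96) and Vgf (0.95), a neuropeptide precursor gene. For Dusp4 they were Ndst3 (0.97), a heparan sulfate enzyme gene, and Rps6ka3 (0.96), which encodes an ERK-activated kinase. For Dusp5 they were Adcyap1 (0.99), the gene of the neuropeptide PACAP, and Oxr1 (0.98), and for Dusp6 Sowahb (0.97) and Pcdh20 (0.97). Dusp8 was closest to Scrt1 (0.99), a neuronal transcription factor gene, and Pik3r2 (0.99), and Dusp18 to Nfic (0.99) and Arhgef17 (0.99).

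Other genes of the pathway were read from lists, and their counts stand beside the share of all genes called in the same comparison. Of 17 other dual-specificity phosphatase genes tested with shNup153-2 at basal state, 5 rose and none fell, where 5.91% of all genes rose and 3.64% fell, with a list median of 0.47 (all genes -0.03). Dusp7, the closest cytoplasmic relative of Dusp6, had 89.7 ± 8.64 CPM (SD, n = 2) with shNup153-2 and 33.3 ± 2.92 CPM (SD, n = 4) with shControl (log2 1.4, SE 0.17, edgeR BH-adjusted p = 0.00531). Dusp9, whose product also prefers ERK, rose but stayed low, at 0.996 ± 0.36 CPM (SD, n = 2) with shNup153-2 and 0.0949 ± 0.0222 CPM (SD, n = 4) with shControl (edgeR BH-adjusted p = 0.00724). Dusp22, an atypical phosphatase gene, rose in all 3 comparisons with shControl, by 0.87 in silenced cultures (edgeR BH-adjusted p = 0.0145), where it was the single call among 15 tested (1.61% of all genes rose, list median 0.23, all genes 0.01), and at basal state by 1.25 with shNup153-2 (edgeR BH-adjusted p = 0.00633) and 1.04 with shNup153-1 (edgeR BH-adjusted p = 0.00493). With shNup153-1, 5 of 16 rose and none fell (list median 0.12, all genes -0.02), where 6.52% of all genes rose and 7.05% fell, with Dusp28 at 1.30 and Dusp3 at 0.91 after Dusp22 (edgeR BH-adjusted p of 0.0149 and 0.0191).

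Next came the kinases that these phosphatases act on, and their activators. Of 21 genes of the Ras-ERK cascade, 1 fell and none rose in silenced cultures, where 1.83% of all genes fell and 1.61% rose. The list medians were 0.00 in silenced cultures and 0.03 and -0.06 at basal state with shNup153-2 and shNup153-1. Nras, a Ras GTPase gene, fell to 49.996 ± 11.9 CPM with shNup153-2 in silenced cultures, against 161 ± 4.30 CPM with shControl (SD, n = 3 each, edgeR BH-adjusted p = 0.00915). At basal state it fell to 36.1 ± 5.42 CPM with shNup153-2 (SD, n = 2), against 189 ± 38.5 CPM with shControl (SD, n = 4, edgeR BH-adjusted p = 0.00475). Rras, a related GTPase gene, rose by 1.28 with shNup153-1 at basal state (edgeR BH-adjusted p = 0.0475). Of 25 genes of the JNK, p38 and ERK5 cascades, in silenced cultures 1 of 24 rose and 1 fell (list median 0.06), against the same shares of all genes. At basal state shNup153-2 gave 4 rises and 1 fall (median 0.15), where 5.91% of all genes rose and 3.64% fell. The other hairpin, shNup153-1, gave 3 rises and 4 falls (median 0.24), where 6.52% of all genes rose and 7.05% fell. Map3k10, a kinase upstream of JNK, rose with shNup153-2 by 0.70 in silenced cultures (edgeR BH-adjusted p = 0.0313) and by 1.25 at basal state (edgeR BH-adjusted p = 0.0173). Map2k4, which phosphorylates JNK and p38, rose at basal state by 0.91 with shNup153-2 and 1.09 with shNup153-1 (edgeR BH-adjusted p of 0.0352 and 0.00887), and Map3k5 rose by 0.82 with shNup153-2 (edgeR BH-adjusted p = 0.0226). Mapk12, a p38 kinase gene, fell by 1.49 in silenced shNup153-2 cultures (edgeR BH-adjusted p = 0.0461) and by 3.21 with shNup153-1 (edgeR BH-adjusted p = 0.00406), where the scaffold gene Mapk8ip2 fell by 1.74 (edgeR BH-adjusted p = 0.0052).

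For the lists that follow, the shares of all genes were 1.61% risen and 1.83% fallen in silenced cultures, and at basal state 5.91% and 3.64% with shNup153-2 and 6.52% and 7.05% with shNup153-1. The other class of ERK feedback inhibitors, Sprouty and Spred proteins and related genes, gave 1 rise among 12 tested with shNup153-2 at basal state, Spred3 (1.73, SE 0.41, edgeR BH-adjusted p = 0.0393), and 1 fall with shNup153-1, the adaptor gene Sh2b3 (-0.81, SE 0.22, edgeR BH-adjusted p = 0.0437). In silenced cultures none of 13 passed with edgeR, and the list medians were -0.04 there and 0.14 and 0.11 at basal state with shNup153-2 and shNup153-1. Of 11 MAPK-activated kinase genes, 3 rose and none fell in silenced shNup153-2 cultures (list median -0.01). They were Rps6ka2 (1.44), Mapkapk2 (0.91) and Rps6ka4 (0.96), with edgeR BH-adjusted p of 0.00529, 0.0139 and 0.0239. At basal state 3 rose and 1 fell with shNup153-2 (list median 0.22), with Rps6ka2 at 2.00, Rps6ka4 at 1.33 and Rps6ka5 at -1.25 (edgeR BH-adjusted p of 0.005, 0.00633 and 0.0149). With shNup153-1 (list median -0.10), 1 rose, Mapkapk2 (0.67), and 2 fell, Rps6ka5 (-1.31) and Rps6ka1 (-1.19), with edgeR BH-adjusted p of 0.0335, 0.00989 and 0.0182.

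Of 16 ERK-responsive transcription factor genes, 4 rose and 1 fell with shNup153-2 at basal state (list median 0.47), where 5.91% of all genes rose and 3.64% fell. Elk4, an ETS factor that partners serum response factor, rose by 1.70 (edgeR BH-adjusted p = 0.0195), Elk3 by 2.00 (edgeR BH-adjusted p = 0.0219) and the immediate early gene Egr1 by 2.12 (edgeR BH-adjusted p = 0.0233). With shNup153-1, 3 rose and none fell (list median 0.68, with 6.52% of all genes risen), Elk3 (2.17), Junb (1.27) and Egr1 (1.67), with edgeR BH-adjusted p of 0.0131, 0.0352 and 0.0417. In silenced shNup153-2 cultures none of 15 passed with edgeR (list median 0.00). In silenced over basal cultures 8 of the 16 fell and 1 rose with shNup153-2 (list median -1.41), where 12.3% of all genes fell and 9.39% rose. In shControl cultures 4 fell and none rose (list median -0.19), where 6.27% of all genes fell and 6.09% rose.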

How the data were processed

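RNA-seq of 14 libraries in 5 groups was used. Per the labels, libraries were stranded, poly(A)-selected and read in pairs of 100 bases. The deposited tables hold raw counts per gene symbol made with featureCounts 2.0.1 on mm10, per the submitters' processing notes. For the aligner, annotation and strand setting: not given in the sources used. Groups come from sample titles. Among basal columns, 2 share 1 name and were not used. The shNup153-1 columns lose their match to the row names lower down: their correlation with shControl across lines was 0.9745 up to line 16399 and 0.0959 beyond. All members lie above that line.

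Counts were tested with edgeR 4.0.16 in R 4.3.3 (filterByExpr with a minimum count of 10, TMM scaling, quasi-likelihood F test, Benjamini-Hochberg (BH) adjustment over all genes, threshold 0.05). The SE is the log2 fold change divided by the square root of F. Basal shNup153-1 was fitted with the other basal groups over the upper lines, basal shNup153-2 with shControl over all lines, silenced groups alone, and comparisons of states jointly without shNup153-1. Alternatives were DESeq2 1.42.0, its size factors, no filter, other library sets, a replicate block and leaving out each library. Named genes were all members, up to 3 called genes per pathway list with the smallest p, and the 2 most correlated genes per called member. The search for correlated genes left out members and predicted (Gm or Rik) or clone names. A result of the Ras-ERK list at basal state is not reported here. In the silenced table same-numbered libraries correlated at 0.448, 0.670 and 0.740 in their deviations from group means, a pairing taken from the data. Members and lists were chosen with earlier results of these data known. Promoter sequences are RefSeq's (GRCm38.p6), and 9 of 10 members matched.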

Additional observations from a re-analysis of the deposited data

Results flagged for a closer look

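Dusp1 stood out because its order of groups differed between the states. All silenced shNup153-2 libraries lay below all silenced shControl libraries, and both basal shNup153-2 libraries lay above all basal shControl libraries. The silenced difference did not pass in the reported fit (log2 -0.55, edgeR BH-adjusted p = 0.282). It passed in the fit with the replicate block (log2 -0.59, edgeR BH-adjusted p = 0.0463), where 10.3% of all genes fell. The share of all genes with such an order was not counted. The difference between the states in the shNup153-2 effect was -1.82 on the log2 scale (edgeR BH-adjusted p = 0.153, DESeq2 adjusted p = 0.00282), so the call depends on the tool.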

How the results depend on the processing

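With 1 library left out, the number of members past the threshold ranged from 1 to 5 with basal shNup153-1 (3 with all libraries), 0 to 6 with basal shNup153-2 (6), 0 to 1 in silenced cultures (1), 2 to 5 for silencing in shControl (4) and 3 to 6 for silencing with shNup153-2 (6). It stayed at 0 between hairpins and for the difference between states. Where this leaves 1 library in a group, that library is assumed to vary like the others. With the replicate block the count was 0 with basal shNup153-1, where no gene at all was called, and 5 in silenced cultures. The basal numbers do not pair the libraries (deviations of equal numbers correlated at -0.669 and -0.734 for shNup153-1 and shControl, 0.300 and 0.0412 for shNup153-2 and shControl). Replicate 1 of shNup153-1 instead deviated with shControl replicates 2 and 4 (0.734 and 0.488) and against replicate 3 (-0.599). With 2 libraries in the group, replicate 2 mirrors replicate 1. The part of this in the shNup153-1 values was not tested. Other counts under the block stayed within 1.5 times. Between silenced and basal shControl, where equal numbers correlated at 0.216, -0.240 and -0.282 and so do not pair the libraries, the block ended the call of Dusp4 for silencing in shControl (-1.24, edgeR BH-adjusted p = 0.0566). With DESeq2, 3 members were called for the difference between states. No value past the threshold changed sign under any alternative. Of those not past it, under the block Dusp16 stood at 0.41 with basal shNup153-2 and Dusp2 at -0.25 for silencing with shNup153-2. Ranges that crossed 0 with 1 library left out were -0.011 to 0.50 for Dusp14 between hairpins, -0.20 to 0.087 (Dusp14), -0.39 to 0.26 (Dusp16) and -0.34 to 0.15 (Dusp10) with basal shNup153-2, -0.65 to 0.12 (Dusp2) and -1.05 to 0.62 (Dusp16) in silenced cultures, -0.44 to 0.29 for Dusp2 in silencing with shNup153-2, and -1.04 to 0.60 for Dusp16 in the difference between states. Calls over all genes moved by more than 1.5 times with DESeq2, to 3146 with basal shNup153-1 (1971 in the reported fit), 3624 with basal shNup153-2 (1880), 2102 between hairpins (651) 1791 in silenced cultures (654) and 251 for the difference between states (0). Under the block they came to 4161 in silenced cultures and to 0 for the comparisons with shNup153-1. With only the compared groups in the fit, basal shNup153-1 gave 1203. With 1 library left out, calls ranged from 356 to 2050 with basal shNup153-1, 15 to 2211 with basal shNup153-2, 0 to 998 between hairpins, 4 to 659 in silenced cultures, 1069 to 3426 for silencing in shControl (2586), 841 to 6120 for silencing with shNup153-2 (4545) and 0 to 12 for the difference between states (0). The causes were not tested. The lowest member count, 27 for Dusp2, limits the precision of that gene.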
